A study of Mus musculus with 12 samples.

Results

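The cytosolic ribosomal protein genes are described here, as sites of the histone acetyltransferase MOF and of the transcription factor GATA1 in mouse blood progenitors. The genes were taken by symbol from the RefSeq annotation of GRCm38.p6 (mm10), as protein-coding genes whose symbols have the form Rpl or Rps plus a number, or Rplp0 to Rplp2, or Rpsa. This gave 84 of the 21887 protein-coding genes annotated on the 19 autosomes, X and Y. Of the 84 genes, 52 carry the prefix of the large subunit (Rpl) and 32 that of the small subunit (Rps). Among them are 6 genes from a list of tissue-restricted or duplicated copies, namely Rpl3l, Rpl7l1, Rpl10l, Rpl22l1, Rpl39l and Rps27l.

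The study mapped MOF by chromatin immunoprecipitation and sequencing (ChIP-seq) in cells sorted from the bone marrow of C57BL/6 mice. Haematopoietic stem cells (HSC, 15000 sorted cells) and megakaryocyte-erythroid progenitors (MEP, 30000 sorted cells) came from wild-type animals and from animals of the genotype Mof -/+. HSC were gated as LSK cells without CD34 and Flt3, and MEP as Kit-positive, Sca-1-negative cells without lineage markers, CD34, IL7r or CD16/32. GATA1 was mapped in HPC7, a wild-type mouse haematopoietic progenitor cell line kept in stem cell factor. Per the labels marrow was pooled over several bones, while the sources used here do not state the number and age of the animals, the kind of Mof allele or any pooling of animals. Each list comes from 1 library, so no difference between lists has a replicate check, and no p-value is given. A peak list measures no expression, so the sorted identities could not be checked against markers. The number of reads behind each list is unknown.

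Ribosomal proteins assemble with ribosomal RNA into the large subunit, which joins amino acids, and the small subunit, which decodes the messenger. Their genes are transcribed at high rates in dividing cells, and in mammals many start their messenger inside a run of pyrimidines, the terminal oligopyrimidine or TOP element, through which their translation is controlled. Inherited loss of a single copy of some of them causes Diamond-Blackfan anaemia, a failure of red cell production in the marrow. MOF, the product of Kat8, acetylates histone H4 at lysine 16 within the MSL complex, and within the NSL complex it occupies promoters of housekeeping genes.

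MOF peaks lay at 36 of the 84 ribosomal protein genes in wild-type cells (either cell type), against 10.4% of all protein-coding genes, and at 2 of them in Mof -/+ cells. A gene was counted if the midpoint of a peak lay within 5 kb of its annotated start or end. In the wild-type HSC list, which holds 1876 summits, 29 of the 84 genes were counted (34.5%, 95% Wilson interval 25.2 to 45.2), against 8.52% of all protein-coding genes. In the wild-type MEP list, which holds 898 summits, 19 were counted (22.6%, 14.99 to 32.6), against 3.40% of all protein-coding genes. The Mof -/+ HSC list, with 338 intervals, held 2 of the 84 genes (2.38%, 0.655 to 8.27), against a background of 0.567%. The Mof -/+ MEP list (64 intervals, background 0.0366%) and the GATA1 list (477 intervals, background 0.603%) held none of them. In all, 37 genes had a peak in at least 1 list and 47 had none. Of the 37, 36 were in a wild-type list, where the background for either list was 10.4%. The intervals cover counting error only, and the lists differ in length and possibly in depth, so the shares of different lists are not on 1 scale.

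**Figure D1:**
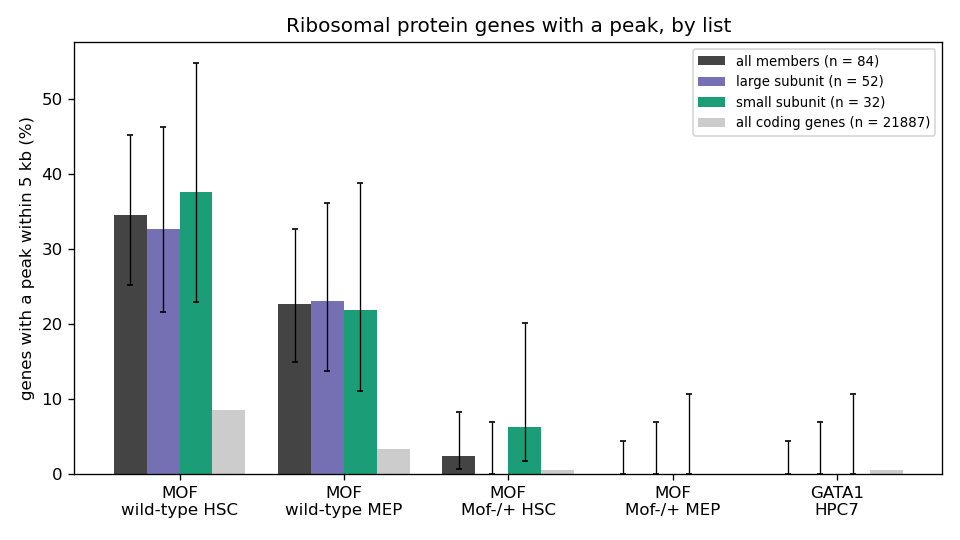
Share of genes with a peak within 5 kb (%, vertical axis) in each of the 5 peak lists, for all 84 ribosomal protein genes, the 52 large-subunit genes, the 32 small-subunit genes and all 21887 protein-coding genes. Error bars are 95% Wilson intervals. The bars of the ribosomal protein genes reach 34.5% (HSC, wild type) and 22.6% (MEP, wild type), and the intervals of the large and the small subunit overlap in both.

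Large-subunit and small-subunit genes did not separate. In wild-type HSC 17 of 52 large-subunit genes (32.7%, 21.5 to 46.2) and 12 of 32 small-subunit genes (37.5%, 22.9 to 54.7) had a peak, a difference of -4.81 percentage points (large minus small) with a 95% interval from -25.4 to 15.1. In wild-type MEP the counts were 12 of 52 (23.1%, 13.7 to 36.1) and 7 of 32 (21.9%, 11.0 to 38.8), a difference of 1.20 points (-18.1 to 18.2). These intervals are wide enough to hold differences of 15 points in either direction. In Mof -/+ HSC both genes with a peak belong to the small subunit.

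Genes found in both wild-type lists numbered 12, against 1.52% of all protein-coding genes. Among them are the large-subunit genes Rpl3, Rpl5, Rpl13a, Rpl21, Rpl23 and Rpl27 and the small-subunit genes Rps3a1, Rps19, Rps23, Rps27a and Rps29. The 12 genes make up 41.4% of the genes in the HSC list and 63.2% of those in the MEP list. Over all protein-coding genes the corresponding shares were 17.9% and 44.7%. A further 17 genes were in the HSC list alone and 7 in the MEP list alone. Of all 21887 protein-coding genes, 1865 were in the HSC list and 745 in the MEP list, and only 333 were in both.

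The order of the 2 cell types depended on which summits were kept. When the HSC list was shortened to its 898 highest summits, the length of the MEP list, 11 of the 84 genes remained (13.1%, against 4.19% of all protein-coding genes), fewer than the 19 in MEP. Of these 11 genes 8 were large-subunit and 3 small-subunit genes, and 5 were also in the MEP list. The 5 genes made up 45.5% of those in the shortened HSC list, against 20.1% over all protein-coding genes. They made up 26.3% of those in the MEP list, near the 24.7% over all protein-coding genes. The shortened HSC list ends at a −log10 value of 5.38, whereas the MEP list goes down to 1.35, so length and stringency changed together. With each list kept above its own median, HSC had the higher count, with 11 genes (13.1%, against 4.35% of all protein-coding genes). MEP, from a shorter list, had 7 (8.33%, against 1.54% of all protein-coding genes).

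Rpl5 had the highest peak among the ribosomal protein genes in HSC and lay in both lists. Its product binds 5S ribosomal RNA together with that of Rpl11 and holds back the p53 regulator MDM2. Rpl5 occupies 107900508 to 107909005 of chromosome 5. Its HSC summit at 107900626 had a −log10 value of 12.4 (rank 98 of 1876), and its MEP summit at 107900649 a value of 6.12 (rank 390 of 898). These summits were 23 bp apart. The −log10 value is the authors' per-peak significance, read as −log10 of a q-value, and is compared here only within a list. No peak was counted at Rpl11 in any list.

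Rps23 and Rpl27 were above the list median in both cell types. Rps23, whose product sits in the decoding centre, lies on chromosome 13 from 90923122 to 90924732 and had summits at 90923139 in HSC (6.99) and 90923048 in MEP (6.77). Rpl27, on chromosome 11 from 101442245 to 101445596, had summits at 101442320 in HSC (5.93) and 101442391 in MEP (6.67). The medians of all peaks were 5.27 in HSC and 5.61 in MEP, and together with Rpl5 these were the 3 genes above the median in both lists.

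The other shared genes were above the median of at most 1 list. Rps19, the gene most often mutated in Diamond-Blackfan anaemia, lies on chromosome 7 from 24884592 to 24889811 and had summits at 24884447 in HSC (3.89) and 24884267 in MEP (6.20). Rpl3, whose product reaches into the peptidyl transferase centre, lies on chromosome 15 from 80077781 to 80083406 and had summits beyond its higher-coordinate end at 80083465 in HSC (7.49) and 80083592 in MEP (4.71). A second MEP summit of Rpl3, at 80076804 (3.23), lay 977 bp beyond its lower-coordinate end. Rpl23, on chromosome 11, had summits at 97782537 in HSC (5.69) and 97782454 in MEP (2.304).

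Rpl13a, on chromosome 7 from 45125563 to 45128745, had summits at 45129046 in HSC (2.35) and 45129129 in MEP (5.99), which lay 301 and 384 bp upstream of its start. Among the genes named here, those closest to the 5 kb limit from inside were Rpl12 (3084 bp) and Rpl19 (3658 bp) in HSC and Rps9 (1854 bp) and Rpl24 (2243 bp) in MEP. The nearest genes outside the limit were Rps10 in HSC, with a summit 7420 bp away, and Rpl6 in MEP, with a summit 6930 bp away.

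A further 4 shared genes were below the list median in both cell types. Rps27a, which encodes ubiquitin fused to a ribosomal protein, had summits at 29547828 on chromosome 11 in HSC (4.48) and 29548041 in MEP (2.37). Rps3a1 had summits at 86142666 on chromosome 3 in HSC (3.72) and 86142505 in MEP (2.28). Rpl21 had summits at 146832969 on chromosome 5 in HSC (3.50) and 146832912 in MEP (2.90). Rps29 had summits at 69159162 on chromosome 12 in HSC (1.89) and 69159440 in MEP (1.77), ranks 1808 of 1876 and 888 of 898.

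At every shared gene the HSC and MEP summits lay close together. The 12 genes represent 11 pairs of summits, and the gaps ran from 23 bp at Rpl5 to 278 bp at Rps29, with a median over genes of 87 bp. Over all 333 protein-coding genes in both lists the median gap was 91 bp, and 84.1% of the genes had a gap of at most 300 bp. The closeness is thus shared with other genes in both lists.

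Among the 17 genes in the HSC list alone, Rpl26 stood highest. Rpl26, a Diamond-Blackfan anaemia gene on chromosome 11 from 68901566 to 68904534, had a summit at 68901598 with a value of 12.1 (rank 103). The next highest were Rpl19 (summit 98026835 on chromosome 11, 7.28), Rps3, whose product lies at the messenger entry channel (99483595 on chromosome 7, 7.26), and Rpl18 (45718087 on chromosome 7, 7.02). The large-subunit genes Rpl6, Rpl7a, Rpl9, Rpl10a, Rpl12, Rpl23a, Rpl32 and Rplp2 and the small-subunit genes Rps12, Rps13, Rps20, Rps26 and Rps28 completed the group. Its 18 peaks had values from 1.84 to 12.1 with a median of 4.97, while the 11 HSC peaks of the shared genes had a median of 4.48.

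Among the 7 genes in the MEP list alone, Rpl41 stood highest. Rpl41, which encodes a very short basic protein, lies on chromosome 10 from 128548110 to 128549168 and had a summit at 128549254 with a value of 9.59 (rank 190 of 898), the highest of any ribosomal protein gene in MEP. Rpl10, whose product joins late in the maturation of the large subunit, had a summit at 74270620 on chromosome X (4.84). Rpl38 (3.87), Rpl39 (3.59), Rpl4 (2.99), Rpl24 (2.90) and Rps9 (2.63), the single small-subunit gene, followed. The absence of a peak from a list is not a measure of absent MOF at unknown depth.

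**Figure D2:**
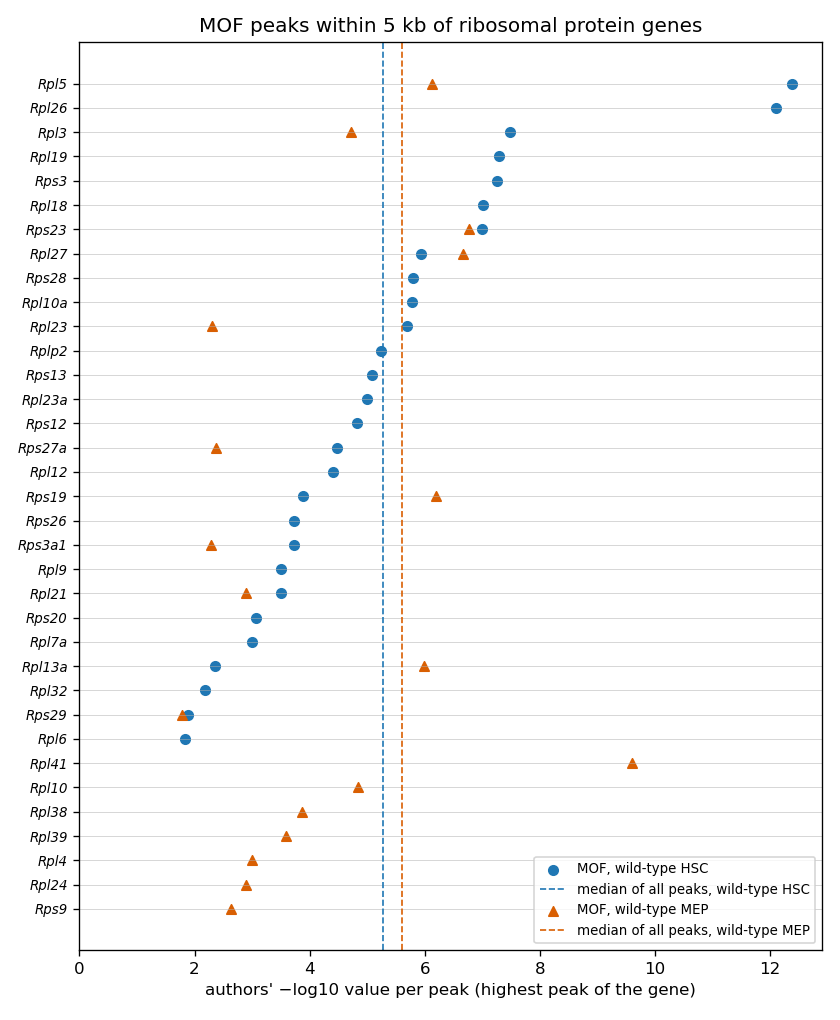
The authors' −log10 value per peak (horizontal axis) for ribosomal protein genes with a peak in wild-type HSC (circles) or wild-type MEP (triangles), taking the highest peak of each gene. Dashed lines mark the medians of all peaks, 5.27 in HSC and 5.61 in MEP; Rpl5, Rps23 and Rpl27 lie above the line of both lists, and most of the other symbols lie to the left of the line of their list.

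Most peaks at ribosomal protein genes were below the median of their list. In HSC the 29 peaks had a median value of 4.95, and 11 of them (37.9%) lay above the list median, against 49.7% of all peaks within 5 kb of a protein-coding gene, whose median was 5.25. In MEP the 19 peaks had a median of 3.59, and 6 of them (31.6%) lay above the list median, against 43.2% of all peaks near protein-coding genes, whose median was 5.23. The highest values near any protein-coding gene were 44.8 in HSC and 135 in MEP, against 12.4 and 9.59 at ribosomal protein genes.

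Most of the peaks sat at gene boundaries. The median distance from the nearer annotated end was 114 bp for the 29 genes in HSC, and 21 of them (72.4%) had a summit within 200 bp. Over all 1865 protein-coding genes with a peak in HSC the median was 197 bp and the share 50.5%. In MEP the median was 186 bp for the 19 genes, with 11 (57.9%) within 200 bp, against 266 bp and 42.4% over all 745 genes. Within 1 kb lay 24 of 29 genes in HSC (82.8%) and 16 of 19 in MEP (84.2%), against 72.2% and 69.0% of all genes with a peak. The closest HSC summits were those of Rps3a1 (2 bp), Rps23 (17 bp), Rps29 (24 bp) and Rpl26 (32 bp), and the closest MEP summits those of Rps27a (1 bp), Rpl23 (15 bp) and Rpl21 (22 bp). Among the other shared genes the HSC and MEP distances were 118 and 141 bp at Rpl5, 75 and 146 bp at Rpl27, 59 and 186 bp at Rpl3, and 145 and 325 bp at Rps19. Rps3 in HSC (114 bp), Rpl41 in MEP (86 bp) and Rpl10 in MEP (196 bp) also lay within 200 bp. Ribosomal protein genes are short, with a median length of 3179 bp against 17169 bp for all protein-coding genes, so the search windows around them covered a median of 13179 bp against 20002 bp.

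For 64 of the 84 genes the RefSeq promoter table of GRCm38.p6 gave a strand and a transcription start. Of the 21 such genes in the HSC list, 18 (85.7%) had a summit within 200 bp of a listed start, against 56.4% of the 1575 protein-coding genes with a start and a peak. The median summit lay 18 bp downstream, with 14 genes downstream and 7 upstream of the start. Of the 14 such genes in the MEP list, 9 (64.3%) had a summit within 200 bp, against 40.2% of 617 genes, with 7 on each side. Summits farther than 200 bp lay upstream of the start at Rpl13a (301 bp) and Rps26 (363 bp) in HSC and at Rps19 (325 bp), Rpl13a (384 bp) and Rpl4 (415 bp) in MEP. They lay beyond the far end of the gene at Rpl12 in HSC (5417 bp downstream of the start) and at Rpl24 and Rps9 in MEP (7405 and 4710 bp).

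Listed starts moved some summits closer than the outer gene boundary did. At Rpl19, whose annotated body begins at 98022003, ahead of its first listed start at 98026710, the HSC summit was 3658 bp from a gene end but 89 bp upstream of a start. At Rpl18 the HSC summit was 2620 bp from a gene end and 16 bp downstream of the start. At Rpl38 the MEP summit was 847 bp from a gene end and 85 bp downstream of the start.

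**Figure D3:**
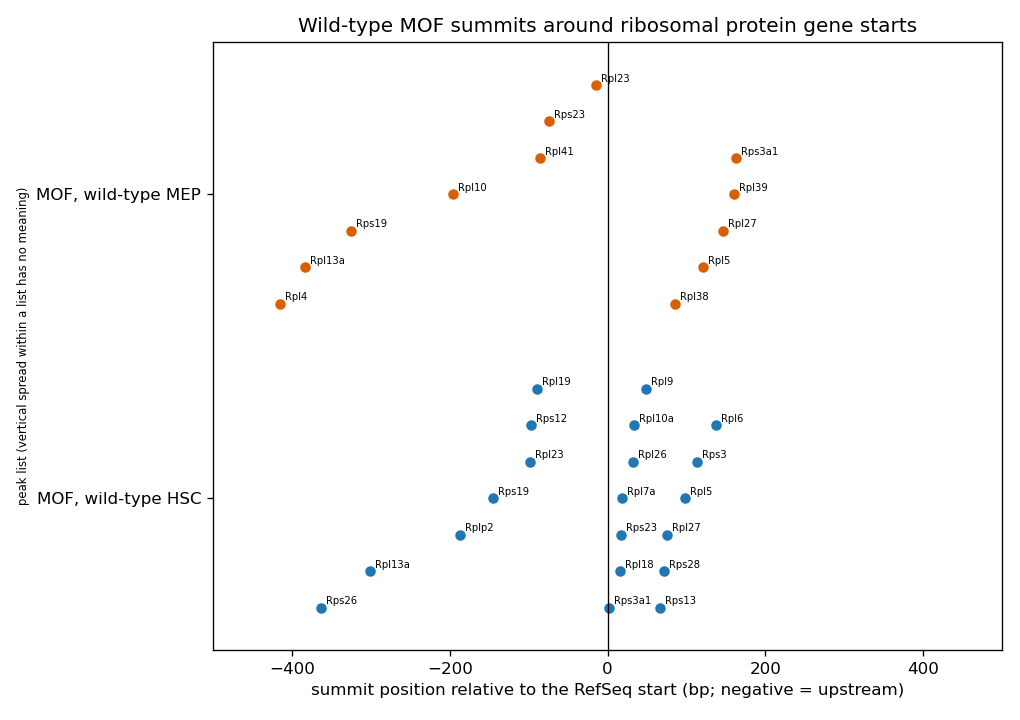
Position of the wild-type MOF summit nearest to a listed RefSeq start (bp, horizontal axis, negative values upstream) for ribosomal protein genes in HSC (lower band) and MEP (upper band); only genes with a listed start and a summit within 500 bp are drawn, and the height within a band has no meaning. In HSC the points gather between 187 bp upstream and 137 bp downstream of the start, apart from Rpl13a and Rps26, and in MEP they reach from 415 bp upstream (Rpl4) to 163 bp downstream (Rps3a1).

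The summits of both cell types fell inside the listed promoter sequence at Rps23 and Rpl23, which are shown because they place the summits on the DNA. The stretch from one summit to the other is in capitals, and each sequence runs in the direction of transcription from upstream of the start to at most 20 bases of the transcript (RefSeq, GRCm38.p6). At Rps23 (chr13:90923028-90923141, plus strand) the capitals run from the MEP summit, 74 bp upstream, to the HSC summit, 17 bp downstream. At Rpl23 (chr11:97782434-97782557, minus strand) they run from the HSC summit, 98 bp upstream, to the MEP summit, 15 bp upstream.
Rps23: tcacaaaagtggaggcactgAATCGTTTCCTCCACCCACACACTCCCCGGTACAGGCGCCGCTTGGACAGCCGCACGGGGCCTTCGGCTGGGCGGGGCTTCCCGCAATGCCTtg
Rpl23: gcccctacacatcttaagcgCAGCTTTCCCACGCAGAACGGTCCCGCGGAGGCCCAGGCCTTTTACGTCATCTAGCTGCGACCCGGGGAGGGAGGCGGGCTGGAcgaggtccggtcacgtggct

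A pyrimidine motif at the start, CTTTCC or CTTTTC on the sense strand from 10 bases before the start to 15 bases from it, was found in 12 of the 64 promoters (18.8%), against 1.65% of 17492 protein-coding promoters. It occurred in 5 of 28 promoters of genes with a wild-type MOF peak (17.9%) and in 7 of 36 without (19.4%). The 5 starts are shown from 25 bases upstream to 20 bases of the transcript, with the motif in capitals. They lie at chr2:32961687-32961731 (Rpl12, plus strand), chr7:45128726-45128770 (Rpl13a, minus), chr7:45718046-45718090 (Rpl18, plus), chr11:114668555-114668599 (Rpl38, plus) and chr10:23787190-23787234 (Rps12, minus). At Rpl18 the HSC summit lies within the stretch, 16 bp downstream of the start.
Rpl12: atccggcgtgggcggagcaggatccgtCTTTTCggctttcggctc
Rpl13a: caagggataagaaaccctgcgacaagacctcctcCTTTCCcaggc
Rpl18: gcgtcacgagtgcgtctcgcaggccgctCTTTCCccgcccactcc
Rpl38: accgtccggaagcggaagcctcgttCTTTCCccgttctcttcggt
Rps12: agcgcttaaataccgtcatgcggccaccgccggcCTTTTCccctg

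The sequence CCGGAAG, a form of the site bound by ETS factors such as GABPA, was more frequent in ribosomal protein promoters whether or not they had a peak. It was searched on both strands of the 300 bases. It stood in 25 of 64 promoters (39.1%) against 11.9% of all protein-coding promoters, in 9 of 28 with a wild-type peak (32.1%) and in 16 of 36 without (44.4%). It is shown in capitals for Rpl26, the higher HSC gene that has it, for Rpl41, the highest MEP gene, and for Rps3a1, a gene in both lists. The stretches are chr11:68901506-68901585 (plus strand), chr10:128549149-128549239 (minus) and chr3:86142649-86142728 (minus), and the motif of Rps3a1 ends 3 bases before the start.
Rpl26: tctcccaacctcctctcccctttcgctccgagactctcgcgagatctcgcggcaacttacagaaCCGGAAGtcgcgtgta
Rpl41: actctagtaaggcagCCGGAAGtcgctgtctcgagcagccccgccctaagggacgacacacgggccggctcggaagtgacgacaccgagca
Rps3a1: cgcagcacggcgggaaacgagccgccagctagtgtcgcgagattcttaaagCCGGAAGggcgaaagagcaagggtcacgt

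The other motifs, searched on both strands, gave smaller contrasts. GGGCGG, the GC box, stood in 57.1% of the promoters with a wild-type peak, 61.1% of those without and 46.3% of all promoters. AAGATGGC, a YY1-type site, stood in 1 of 28, 4 of 36 and 3.22% of all promoters. TATAAA, the TATA box, stood in 2 of 28, 5 of 36 and 13.3% of all promoters. AGATAA, the sequence read by GATA factors, stood in 1 of 28, 3 of 36 and 9.96%. The median GC content was 57.5% with a peak, 56.8% without and 56.3% over all promoters.

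Genes for small nucleolar RNAs (snoRNAs), which guide chemical modification of ribosomal RNA, lie in introns of many ribosomal protein genes. An annotated snoRNA gene lay inside 30 of the 84 genes (35.7%), against 1.70% of all protein-coding genes. The share was 3.21% among all protein-coding genes with a wild-type MOF peak. Among genes with a wild-type MOF peak 20 of 36 (55.6%) held a snoRNA gene, among them Rpl3, Rpl5, Rpl13a, Rpl21, Rpl23 and Rps3a1 from both lists. Among genes without a wild-type peak 10 of 48 did (20.8%). The shares were 17 of 29 against 13 of 55 for the HSC list, and 10 of 19 against 20 of 65 for the MEP list. The median gene length was 3126 bp with a peak and 3222 bp without. The level of transcription was not measured by these files.

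For most ribosomal protein genes with a peak, no other protein-coding gene had an end nearer to it. In HSC 5 of 29 genes (17.2%) had only peaks nearer to another gene, against 28.8% of all genes with a peak, and in MEP 2 of 19 (10.5%) against 32.1%. In HSC these included Rps27a (Clhc1, 122 bp against 212 bp), Rpl23a (Tlcd1, 1506 bp against 2713 bp), Rplp2 and Rpl18 (Sphk2, 85 bp, although the listed start of Rpl18 was nearer still). Rplp2, which encodes a protein of the stalk that recruits elongation factors, had a summit at 141447464 on chromosome 7 (5.24), 101 bp from Pidd1 and 187 bp from Rplp2, and another at 141455362 (4.95), 174 bp from Pnpla2. In MEP they included Rpl4 (Zwilch, 132 bp against 415 bp). With each peak given only to its nearest gene, 24 genes were left in HSC (28.6%, against 6.09% of all protein-coding genes). In MEP 17 were left (20.2%, against 2.32% of all protein-coding genes), and 10 were left in both lists.

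In Mof -/+ cells peaks were counted at 2 small-subunit genes, in HSC only, among them the Diamond-Blackfan anaemia gene Rps29. The Rps29 interval ran from 69158786 to 69159098 on chromosome 12, with a −log10 q of 3.84, a fold enrichment of 5.45 and rank 273 of 338. It ended 64 bp before the wild-type HSC summit and 342 bp before the wild-type MEP summit, which made Rps29 the single gene with a peak in 3 lists. The Rps29 interval ranked in the lower part of its list, whose median −log10 q was 7.66. In Mof -/+ MEP the interval nearest to any of the genes lay 571760 bp from Rpl21.

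No GATA1 interval of HPC7 was counted at a ribosomal protein gene. The nearest interval lay 20941 bp from Rpl18, followed by 37878 bp from Rpl22 and 80169 bp from Rps19, and each of the other genes was farther from any interval. With 0.603% of all protein-coding genes having an interval within 5 kb, a count of none among 84 genes is near that background.

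In the wild-type lists, the 19 genes listed for Diamond-Blackfan anaemia were not set apart from all 84 ribosomal protein genes. In HSC 8 of 19 had a peak (42.1%, 23.1 to 63.7), namely Rpl5, Rpl18, Rpl26, Rpl27, Rps19, Rps26, Rps28 and Rps29. In MEP 4 of 19 had one (21.1%, 8.51 to 43.3), namely Rpl5, Rpl27, Rps19 and Rps29, all of which were in the HSC list too. These intervals include the shares of all 84 genes, 34.5% and 22.6%. None of the 6 copies Rpl3l, Rpl7l1, Rpl10l, Rpl22l1, Rpl39l and Rps27l had a peak in any list, nor did Rpl32l, a further gene with a copy-type symbol. Of the 3 stalk genes Rplp2 alone had a peak, in HSC.

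Some ribosome components have symbols that fall outside the rule. Fau had an HSC summit 1730 bp away that was nearer to Znhit2, and Rack1 and Rpl36al had no peak.

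Other genes of ribosome production had peaks in both lists, more of them in the longer HSC list. Of 82 ribosome biogenesis factors, 17 had a peak in HSC (20.7%, 13.4 to 30.7) and 7 in MEP (8.54%, 4.197 to 16.6). The shares of all protein-coding genes were 8.52% and 3.40%. In both lists were Ncl, Fbl, Bysl, Utp3 and Nop14, the last with peaks nearer to Grk4. Fbl, the methyltransferase of snoRNA particles, had summits of 5.54 in HSC and 7.62 in MEP, and Bysl, a small-subunit maturation factor, of 7.32 and 5.62. Ncl encodes nucleolin, and its highest summits were 3.02 in HSC and 4.54 in MEP. Of 11 genes matched for RNA polymerase I and its initiation factors, 5 had a peak in HSC (Polr1b, Polr1d, Taf1c, Taf1d and Ubtf) and 1 in MEP (Rrn3, with a peak nearer to Ntan1). The HSC summit of Taf1d was nearer to 4931406C07Rik, and that of Ubtf lay 4576 bp from the gene end.

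Mitochondrial ribosomes and the factors of translation served for comparison. Mitochondrial ribosomal protein genes had a peak in 15 of 78 cases in HSC (19.2%, 12.02 to 29.3). In MEP 4 of 78 had one (5.13%, 2.01 to 12.5). Their interval overlapped that of the cytosolic genes in HSC (25.2 to 45.2) but not in MEP (14.99 to 32.6). The background lay inside the mitochondrial interval in MEP (3.40%) and below it in HSC (8.52%). Mrps18b was in both lists, with every peak nearer to Ppp1r10. The initiation and elongation factor genes were taken by symbol alone (Eef or Eif plus a number), so genes such as Eef2kmt and Eif2ak1 are counted too. They had a peak in 9 of 71 cases in each list (12.7%, 6.81 to 22.4), with Eef1a1 and Eif1 in both. The shares of all protein-coding genes were 8.52% in HSC, inside that interval, and 3.40% in MEP. In HSC the share of cytosolic genes lay below that of the 11 polymerase I genes (45.5%, 21.3 to 72.0), with overlapping intervals. These differences were not tested.

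**Figure D4:**
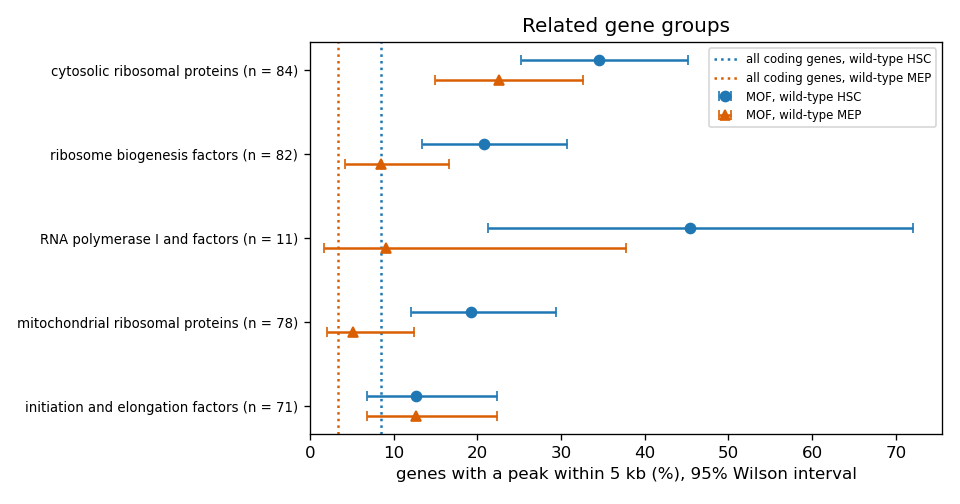
Share of genes with a MOF peak within 5 kb (%, horizontal axis) for cytosolic ribosomal protein genes and 4 related groups in wild-type HSC (circles) and wild-type MEP (triangles), with 95% Wilson intervals; dotted lines mark all protein-coding genes, 8.52% in HSC and 3.40% in MEP. The cytosolic genes stand at 34.5% and 22.6%, and the mitochondrial ribosomal protein genes at 19.2% and 5.13%.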

How the data were processed

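Peak lists of 5 of the 12 samples were used. The other 7 samples, inputs and H4K16ac, were not analysed here. The submitters' processing notes name the build mm10, the aligner Bowtie2 (version 2.3.0.1), MACS2 and deepTools, without settings or the input used for a list. The wild-type lists that the authors deposited hold 1-bp summits, each with a −log10 value. No header names that column, and its minimum just above 1.3 led to its reading as −log10 q at 0.05. The deposited Mof -/+ lists hold intervals with a fold enrichment, −log10 p, −log10 q and a whole-number score that equals 10 times −log10 q without decimals in all 338 and 64 peaks. The deposited GATA1 list holds intervals only.

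Genes came from RefSeq (GRCm38.p6). A peak counted for every gene with an end within 5 kb of its midpoint. Coordinates are 1-based. Starts, strand and sequence came from the RefSeq promoter table (250 bases before to 50 after a start), which matched 64 of 84 genes. Where a gene has several starts, the nearest was used for distances and the first listed for motifs. Of 14 polymerase I genes listed, 11 matched by symbol.

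Members, gene lists and alternatives were chosen with earlier results of these data known. Genes with a peak are named, with full values for genes in both wild-type lists, the 8 highest in each, and those in other lists. Some genes stay in the counts but their own values are not reported here. Genes are not replicates, so shares carry 95% Wilson intervals (differences by Newcombe's method) and no p-value. The assignment was tested on simulated peaks. Alternatives varied the window, the peaks kept, the reference point and the gene assignment. Python 3.11.15, pandas 2.3.3, numpy 2.4.6, scipy 1.17.1 and matplotlib 3.10.9 were used.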

Additional observations from a re-analysis of the deposited data

How the results depend on the processing

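With windows of 1, 2 and 20 kb the genes counted were 24, 24 and 35 in wild-type HSC and 16, 17 and 22 in wild-type MEP. All were within 1.5 times the reported 29 and 19. With these windows the shares of all protein-coding genes were 6.15%, 6.94% and 14.1% in HSC and 2.35%, 2.74% and 6.09% in MEP. No count moved without peaks that overlap a peak of at least 3 other lists, without the copies or with another reference point in the intervals. Peaks above the list median left 11 genes in HSC (8 large, 3 small), 7 in MEP (4 large, 3 small), 3 in both lists and 0 in Mof -/+ HSC. Of all protein-coding genes they left 4.35% in HSC, 1.54% in MEP and 0.119% in Mof -/+ HSC. The HSC list cut to the MEP length left 11 genes (8 large, 3 small) and 5 in both lists. Those 5 were 26.3% of the genes in the MEP list, against 24.7% over all protein-coding genes. Distance to the gene start alone, known for 64 genes, left 4 small-subunit genes in MEP, 7 in both lists and 0 in Mof -/+ HSC, where both genes lack a listed strand. The sign of the large minus small difference was not stable, at 6.01 points in HSC and -1.68 in MEP among peaks above the median, both inside the reported intervals. No paired analysis was possible because each list is 1 library and the labels of the groups compared share no replicate numbers. Depth is unknown, so a missing peak cannot be told apart from low coverage.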

Other observations

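The genes with a peak were unevenly spread over chromosomes. On chromosome 11, 6 of 7 ribosomal protein genes had a peak in wild-type HSC (Rps27a, Rpl26, Rpl23a, Rpl23, Rpl19 and Rpl27) and 4 of 7 in wild-type MEP (Rps27a, Rpl23, Rpl27 and Rpl38), against 13.1% and 5.47% of all protein-coding genes there. On chromosome 9, 0 of 7 had a peak in HSC (8.24% of all genes there) and 1 of 7, Rpl4, in MEP (4.33% of all genes there). On chromosome X, 0 of 4 had a peak in HSC (1.76% of all genes there) and 2 of 4 in MEP, Rpl10 and Rpl39, although only 0.932% of protein-coding genes on X had one in MEP. The counts of 0 in HSC are near the shares of all genes on chromosomes 9 and X. These chromosomes were singled out after their values were seen, and the counts were not tested.

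A cytosine at the listed start base, the first base of a TOP element, was less frequent in promoters with a wild-type peak, at 6 of 28 (21.4%), than in those without, at 16 of 36 (44.4%). It stood at 13.7% of all protein-coding promoters. Listed starts can differ from the base at which transcription begins in these cells, which was not measured here, and the difference was not tested.

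A further protein-coding gene with an end within 1 kb was present for 15 of 36 genes with a wild-type peak (41.7%) and 15 of 48 without (31.3%). Over all protein-coding genes the share was 24.8%, and over those with a wild-type peak 44.7%.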
